A study of Mus musculus with 18 samples.

Results

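The BCL2 family of apoptosis regulators was followed through its transcripts in mouse bone marrow-derived macrophages (BMDM) given oxidized low-density lipoprotein (oxLDL). The 10 members were the table rows with the symbols Bcl2, Bcl2l1, Mcl1, Bcl2a1d, Bax, Bak1, Bcl2l11, Bbc3, Pmaip1 and Bid, out of 18668 rows in all, and every member was present and passed the filter on low values that left 12838 genes. BMDM are macrophages grown from marrow cells with the growth factor M-CSF. Donor mice were either Apoe-/- or doubly deficient, Apoe-/-/Treml4-/- (DKO), on a C57BL6 background, so that the control cells also lacked Apoe. The DKO line came from a cross of Apoe-/- with Treml4-/- mice that was then intercrossed, and the sex and age of the animals behind each library were not given in the labels. Cells of each genotype received the PBS vehicle (untreated), oxLDL at 10 µg/ml (oxLDL 10) or oxLDL at 60 µg/ml (oxLDL 60), with 3 biological replicates in each of the 6 groups and 18 libraries of total RNA. The series record gives an exposure of 16 h and the study's methods a longer one, and a treatment label mentions LPS. Neither point was resolved.

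BCL2 family proteins decide whether the outer membrane of mitochondria is breached. Bcl2, Bcl2l1 (BCL-XL), Mcl1 and Bcl2a1d (A1) hold the pore-forming effectors Bax and Bak1 in check, and the BH3-only proteins Bcl2l11 (BIM), Bbc3 (PUMA), Pmaip1 (NOXA) and Bid bind and neutralise these guardians or activate the effectors. A breach lets out cytochrome c, which assembles the apoptosome and starts the caspases. Macrophage death feeds the necrotic core of atherosclerotic lesions, which is why the response of this family to oxLDL is of interest. Several members, such as Mcl1 and Bid, are controlled largely at the protein level, which RNA does not show.

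Levels are given in RPKM, a read count divided by transcript length and by library depth. Depth recovered from the low values of the table lay between 39700000 and 54100000 reads per library, so that the members had from 192 reads (lowest library of Bcl2a1d) to 22376 reads (highest of Mcl1), and counting error alone was at most 7.22% of a value. All 8 macrophage markers were detected in every library, from Mertk (2.20 to 6.71 RPKM) and Fcgr1 (12.6 to 35.6 RPKM) to Csf1r (409 to 630 RPKM) and Lyz2 (3970 to 9910 RPKM). The summed markers were 0.325 to 0.780 RPKM for T cells, mostly Cd4, 0 to 0.0721 RPKM for B cells, 0.106 to 0.306 RPKM for dendritic cells and 0 to 0.277 RPKM for mast cells and basophils. The neutrophil sum was 29.1 to 80.2 RPKM, mostly S100a8 and S100a9, with Ly6g at 0 in 15 libraries. Treml4 was listed at 0 in 8 DKO libraries and at 0.0116 RPKM in the other. The summed markers of fibroblasts and stroma ran from 0.55 to 13.3 RPKM. In 6 libraries, replicate 2 of each Apoe-/- group and replicate 3 of each DKO group, Xist transcripts stood at 7.25 to 14.5 RPKM. The summed markers of fibroblasts and stroma were lowest of their group in these libraries in 6 of 6 groups. In bulk RNA, fewer cells of a type and less RNA per cell cannot be told apart.

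Per length, the family was carried by Bax and Mcl1, with means over the 18 libraries of 131 RPKM (104 to 158) and 123 RPKM (107 to 149), ranges that overlap. Bak1 (44.9 RPKM), Bcl2l1 (31.7 RPKM) and Bid (26.4 RPKM) came next, and then Bcl2a1d (11.3 RPKM). Pmaip1 (5.88 RPKM), Bcl2l11 (5.09 RPKM), Bbc3 (2.73 RPKM) and Bcl2 (2.56 RPKM) were the lowest. Relatives outside the 10 members are not in this order, such as Bcl2a1b, with group means of 41.2 to 52.3 RPKM. Bcl2, which gave the family its name, and Bbc3 changed places between groups. The group mean of Bcl2 was below that of Bbc3 in untreated cells (2.15 against 2.98 RPKM in Apoe-/-, 2.35 against 3.14 RPKM in DKO). At oxLDL 60 it was above that of Bbc3 (2.87 against 2.66 RPKM in Apoe-/-, 3.11 against 2.27 RPKM in DKO). The libraries of these genes overlapped in untreated DKO and in Apoe-/- at oxLDL 60. The ratio of the highest to the lowest library ran from 1.3 for Bak1 to 4.86 for Bcl2a1d.

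**Figure D1:**
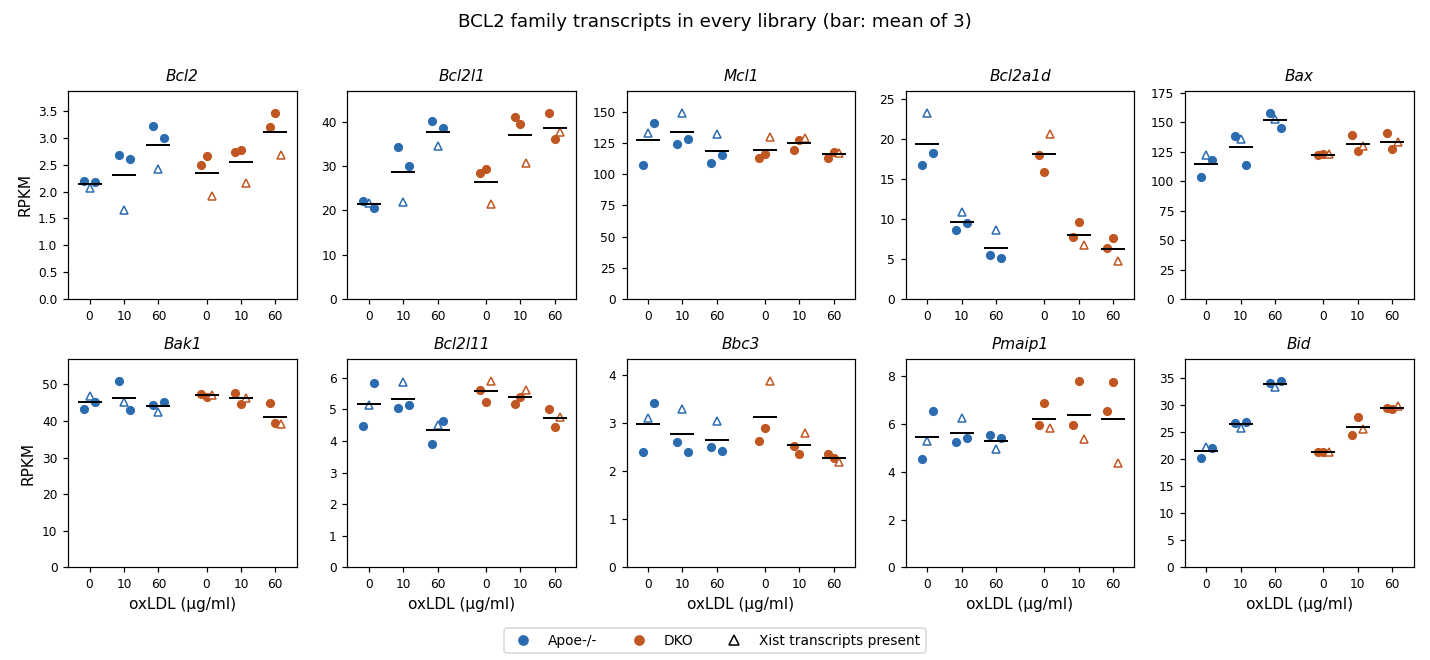
RPKM (vertical axes, from 0) of the 10 members in each of the 18 libraries against oxLDL in µg/ml, Apoe-/- in blue and DKO in orange, with bars for the mean of 3 and open triangles for libraries with Xist transcripts. Bcl2a1d falls from 15.9 to 23.3 RPKM in untreated cells to 4.78 to 8.65 RPKM at oxLDL 60, while Bcl2l1 and Bid lie higher at oxLDL 60 and Mcl1 and Bak1 stay within narrow ranges.

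To ask which members respond to lipid loading, both oxLDL groups were set against the untreated group of their own genotype. Calling a gene required an adjusted p below 0.05 together with a change of 1.4-fold or more (limma on log2(RPKM + 0.1), Benjamini-Hochberg over the 12838 genes). At oxLDL 60 in Apoe-/- cells 2 members rose (Bcl2l1 and Bid) and 1 fell (Bcl2a1d), against 7.13% of all genes called higher and 6.78% called lower. In DKO cells 1 member rose (Bcl2l1) and 1 fell (Bcl2a1d), against 4.87% and 7.31%. At oxLDL 10, Bcl2a1d fell in both genotypes and no other member was called, against 0.748% of genes higher and 2.04% lower in Apoe-/- and 0.569% and 1.69% in DKO. The median change over the 10 members at oxLDL 60 was -0.03 on the log2 scale in Apoe-/- and -0.04 in DKO, beside 0.06 and -0.06 over all genes tested. The summed level of 8 macrophage markers, mostly Lyz2, also went from a mean of 10600 to 7310 RPKM in Apoe-/- (1 marker rose and 4 fell) and from 9500 to 6150 RPKM in DKO (1 rose and 3 fell), and its part in the members' results was not tested.

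Bcl2a1d, the gene of a short-lived anti-apoptotic protein found in blood cells, made the largest change of the family. Its level in Apoe-/- replicates 1 to 3 was 16.8, 23.3 and 18.3 RPKM untreated, 8.61, 10.9 and 9.53 RPKM with oxLDL 10, and 5.52, 8.65 and 5.20 RPKM with oxLDL 60. In DKO it was 18.0, 15.9 and 20.7 RPKM untreated, 7.73, 9.62 and 6.75 RPKM with oxLDL 10, and 6.35, 7.67 and 4.78 RPKM with oxLDL 60. Every treated library lay below every untreated one in both genotypes, and the oxLDL 10 and oxLDL 60 ranges overlapped. The library with Xist transcripts had the highest Bcl2a1d of its group in 4 of 6 groups. The change at oxLDL 10 was -0.99 (SE 0.20, limma adjusted p = 0.00588) in Apoe-/- and -1.18 (SE 0.20, limma adjusted p = 0.00227) in DKO. At oxLDL 60 it was -1.60 (SE 0.20, limma adjusted p = 9.06e-06), a 3.03-fold fall, in Apoe-/- and -1.54 (SE 0.20, limma adjusted p = 1.56e-05), a 2.91-fold fall, in DKO. Counted from the most negative change, Bcl2a1d ranked 170 of 12838 genes in Apoe-/- cells at oxLDL 60 and 155 in DKO cells. The step from oxLDL 10 to oxLDL 60 in Apoe-/- was -0.61 (SE 0.20, limma adjusted p = 0.0511), just outside the limit, and with the replicate number as a block it passed (limma adjusted p = 0.00415). In DKO that step was -0.36 (SE 0.20, limma adjusted p = 0.244).

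**Figure D2:**
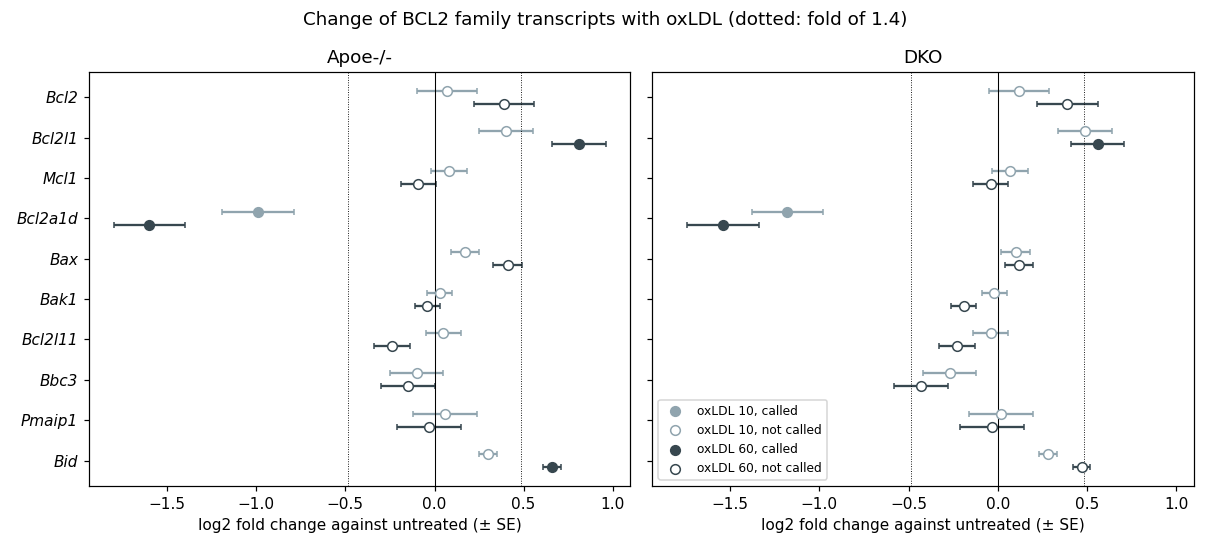
Change of each member against untreated cells on the log2 scale (horizontal axes, bars ± SE), at oxLDL 10 (grey) and oxLDL 60 (dark), for Apoe-/- (left) and DKO (right). Filled points were called and dotted lines mark a fold of 1.4. Bcl2a1d lies at -0.99 and -1.60 in Apoe-/- and at -1.18 and -1.54 in DKO, and the other 9 members lie between -0.43 and 0.81.

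The mouse carries several near-identical copies of this gene on chromosome 9, and reads of 1 copy can be placed on another. The 516 coding bases of Bcl2a1d (chr9:88723285-88731914, minus strand, GRCm38), Bcl2a1a (chr9:88956900-88962419, plus strand) and Bcl2a1b (chr9:89199209-89207827, plus strand) differ at 12 positions among the 3, and Bcl2a1d shares 98.6% of them with Bcl2a1a and 98.8% with Bcl2a1b. The first 120 coding bases, which hold 7 of the 12 differences, are shown as the stretch of that length with the most differences. The remaining differences lie elsewhere in the coding bases. Capitals mark the differing positions.
Bcl2a1d, chr9:88731600-88731719, minus strand: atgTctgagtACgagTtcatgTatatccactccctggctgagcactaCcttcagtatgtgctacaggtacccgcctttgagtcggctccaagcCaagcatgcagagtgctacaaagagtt
Bcl2a1a, chr9:88957051-88957170, plus strand: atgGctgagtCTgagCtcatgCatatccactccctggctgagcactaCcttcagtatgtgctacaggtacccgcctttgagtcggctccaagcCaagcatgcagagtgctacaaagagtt
Bcl2a1b, chr9:89199360-89199479, plus strand: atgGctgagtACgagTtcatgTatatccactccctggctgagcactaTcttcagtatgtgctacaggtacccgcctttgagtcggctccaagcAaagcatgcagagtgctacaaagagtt

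Much of the transcript is shared letter for letter. Of all windows of 50 bases along the Bcl2a1d transcript, 79.5% also occur without a mismatch in Bcl2a1a or Bcl2a1b, and of windows of 150 bases 30.3% do. The labels name runs of both read lengths, on different instruments, and do not say which library had which. How reads that fit several copies were counted is not given in the sources used here. The part of the runs in the values of the copies was not tested. The values of single copies are therefore uncertain, and all copies are described together.

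Bcl2a1b was the most abundant copy in every library. It stood at 45.2, 57.2 and 48.8 RPKM in untreated Apoe-/- cells and at 49.7, 56.2 and 50.9 RPKM with oxLDL 60, a difference of 0.06 (SE 0.24, limma adjusted p = 0.894). In DKO it stood at 46.3, 53.3 and 41.4 RPKM untreated and at 45.0, 53.8 and 25.5 RPKM with oxLDL 60, a difference of -0.24 (SE 0.24, limma adjusted p = 0.526). The 95% interval of this difference ran from -0.47 to 0.59 in Apoe-/- and from -0.77 to 0.29 in DKO, and in DKO the lower mean came from replicate 3, which was also low with oxLDL 10 (25.7 RPKM). Bcl2a1a was scarce, from 0.648 to 4.73 RPKM, and fell at oxLDL 60, with a log2 change of -0.94 in Apoe-/- (SE 0.31, limma adjusted p = 0.0286) and of -1.45 (SE 0.31, limma adjusted p = 0.0019) in DKO. Bcl2a1c was at most 0.0567 RPKM, about 1 read. Bcl2a1d made up 26.4 ± 0.752% (SD, n = 3) of the summed level of the 3 copies in untreated Apoe-/- cells, 17.4 ± 1.60% with oxLDL 10 and 10.6 ± 2.12% with oxLDL 60. In DKO its share was 26.8 ± 4.98%, 16.5 ± 3.08% and 13.2 ± 1.94%, so that the share was lower in each oxLDL 60 library than in each untreated library of its genotype. The sum of the 3 copies went from 73.4 ± 10.7 RPKM (SD, n = 3) to 60.5 ± 5.45 RPKM in Apoe-/- and from 68.4 ± 4.01 to 48.9 ± 16.3 RPKM in DKO. The groups of this sum overlapped in Apoe-/- and did not overlap in DKO, and it was not tested.

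**Figure D3:**
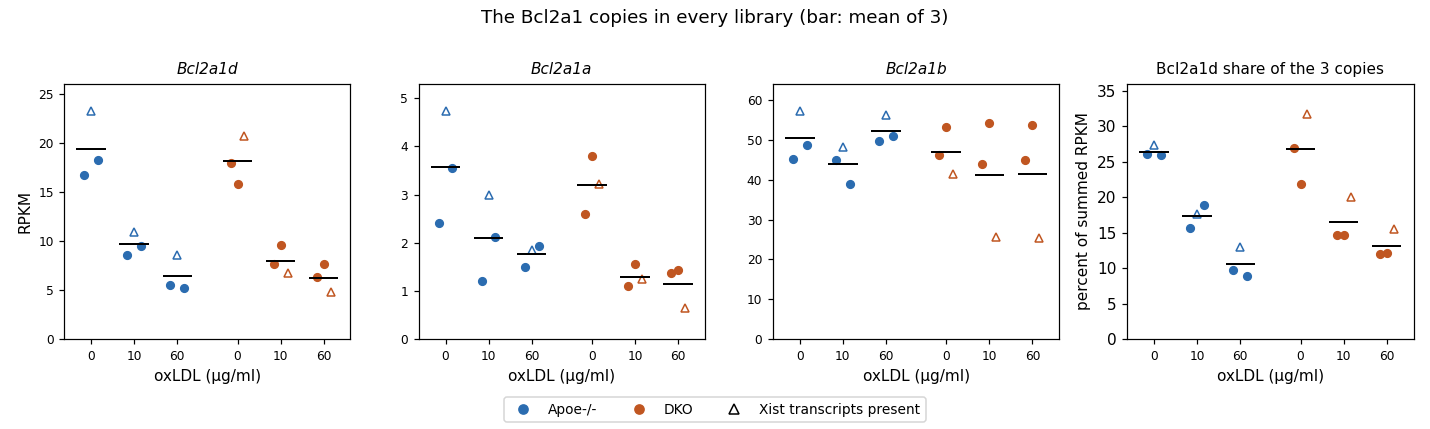
RPKM of Bcl2a1d, Bcl2a1a and Bcl2a1b and the share of Bcl2a1d in the sum of the 3 copies (percent, right panel) in each library against oxLDL in µg/ml, with bars for the mean of 3 and open triangles for libraries with Xist transcripts. The share of Bcl2a1d falls from 26.4% to 10.6% in Apoe-/- and from 26.8% to 13.2% in DKO. Bcl2a1b lies between 38.8 and 57.2 RPKM in Apoe-/- and between 25.5 and 54.2 RPKM in DKO.

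The promoters of the copies were read because the copies moved unequally. RefSeq promoters (GRCm38.p6, from 250 bases before to 50 after a transcript start) were given for 9 of the 10 members, with 14 entries, and for both other copies. The stretch from 20 bases before the first to 20 bases after the last motif match is shown for each copy, with matches in capitals. TGAATCA matches the AP-1 motif TGANTCA, found on either strand in 7.81% of the 32851 promoters of the table, and TGATGCAA matches the C/EBP-ATF motif TGATGNAA, found in 3.97%.
Bcl2a1d, chr9:88731819-88731984, minus strand: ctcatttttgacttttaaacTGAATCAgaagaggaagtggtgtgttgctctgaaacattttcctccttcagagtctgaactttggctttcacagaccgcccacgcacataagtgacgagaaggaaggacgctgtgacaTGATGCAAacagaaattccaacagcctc
Bcl2a1a, chr9:88956780-88956951, plus strand: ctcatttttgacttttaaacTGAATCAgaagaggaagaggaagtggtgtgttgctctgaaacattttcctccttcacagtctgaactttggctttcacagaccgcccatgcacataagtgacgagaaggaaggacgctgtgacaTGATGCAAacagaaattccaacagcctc
Bcl2a1b, chr9:89199089-89199260, plus strand: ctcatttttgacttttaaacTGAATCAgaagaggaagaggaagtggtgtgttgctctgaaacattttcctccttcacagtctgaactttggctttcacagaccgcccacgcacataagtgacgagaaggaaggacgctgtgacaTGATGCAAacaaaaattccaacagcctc

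All 3 copies held both matches, 117 bases apart in Bcl2a1a and Bcl2a1b and 111 bases apart in Bcl2a1d. The copy that was not called and the copies that fell thus held the same matches, which describe letters only. Their places from the transcript start differed with the annotation used. Counted from the GENCODE gene starts given above, the places in Bcl2a1a and Bcl2a1b were equal and those in Bcl2a1d differed. The places that follow are counted from the RefSeq starts. The C/EBP-ATF match began at 4 in Bcl2a1d and Bcl2a1a and at -40 in Bcl2a1b. The AP-1 match began at -114 in Bcl2a1d, -120 in Bcl2a1a and -164 in Bcl2a1b. Whether these places bear on the levels was not tested. The promoter entries of Mcl1, Bak1, Bid and Bcl2 matched none of the 7 motifs searched, which besides these were CRE (TGACGTCA, 1.79% of promoters), E-box (CACGTG, 7.15%), forkhead (TGTTTAC, 3.65%), NF-kB (4.51%) and the p53 half-site (8.36%). Bax matched the E-box at 2 places and the p53 half-site at 1, Bcl2l11 the forkhead motif in 1 of 2 entries, and Bcl2l1 NF-kB in 1 of 3 entries. Bbc3 had NF-kB (2 overlapping matches), forkhead and E-box matches, each in a different entry of its 3.

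Bcl2l1, which encodes the anti-apoptotic BCL-XL, rose (chr2:152780668-152831728, minus strand, GRCm38). Its level in Apoe-/- replicates 1 to 3 was 22.1, 21.6 and 20.6 RPKM untreated, 34.3, 22.0 and 30.0 RPKM with oxLDL 10, and 40.1, 34.5 and 38.7 RPKM with oxLDL 60. In DKO it was 28.4, 29.4 and 21.4 RPKM untreated, 41.0, 39.5 and 30.8 RPKM with oxLDL 10, and 42.0, 36.2 and 37.6 RPKM with oxLDL 60. The oxLDL 60 libraries lay above the untreated ones in both genotypes. The change at oxLDL 60 was 0.81 (SE 0.15, limma adjusted p = 0.000427), a fold of 1.76, in Apoe-/- and 0.56 (SE 0.15, limma adjusted p = 0.0093), a fold of 1.47, in DKO. Without DKO untreated replicate 3, a library with Xist transcripts and the lowest of its group, the DKO change was 0.41 (limma adjusted p = 0.0573). At oxLDL 10 the differences were 0.40 (SE 0.15, limma adjusted p = 0.117) in Apoe-/- and 0.49 (SE 0.15, limma adjusted p = 0.0788) in DKO, both short of the limit. The DKO difference passed with the replicate number as a block (limma adjusted p = 0.00353), and the Apoe-/- difference passed at 0.58 without oxLDL 10 replicate 2 (limma adjusted p = 0.0178), which also holds Xist transcripts.

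Bcl2 itself was 2.20, 2.06 and 2.18 RPKM in untreated Apoe-/- replicates and 3.21, 2.42 and 2.99 RPKM with oxLDL 60, and 2.49, 2.66 and 1.91 RPKM against 3.19, 3.46 and 2.68 RPKM in DKO. The groups did not overlap in either genotype, but with a difference of 0.39 in each (SE 0.17, limma adjusted p = 0.0899 in Apoe-/- and 0.0999 in DKO) Bcl2 was not called. The libraries with Xist transcripts had the lowest Bcl2 of their group in 6 of 6 groups and the lowest Bcl2l1 in 4 of 6, although these 6 libraries stand for only 2 replicate numbers. Mcl1, an abundant and short-lived guardian, ranged from 107 to 149 RPKM over all libraries. Its difference at oxLDL 60 was -0.09 in Apoe-/- (SE 0.10, 95% interval -0.30 to 0.13) and -0.04 in DKO (SE 0.10, 95% interval -0.26 to 0.17), with overlapping groups. The ratio of Mcl1 to Bcl2l1 within a library went from 5.94 ± 1.03 (SD, n = 3) to 3.18 ± 0.586 in Apoe-/- and from 4.67 ± 1.23 to 3.02 ± 0.300 in DKO.

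Of the pore-forming effectors, Bax stood at 104, 122 and 118 RPKM in untreated Apoe-/- cells, 138, 136 and 114 RPKM after oxLDL 10, and 158, 153 and 145 RPKM after oxLDL 60. All oxLDL 60 libraries were above all untreated ones, and the difference of 0.41 (SE 0.08) had a limma adjusted p of 0.000622, but its fold of 1.33 was below the limit. In DKO Bax stood at 122, 123 and 123 RPKM untreated and at 141, 127 and 133 RPKM with oxLDL 60, a difference of 0.12 (SE 0.08, limma adjusted p = 0.275). Bak1 lay between 39.2 and 50.9 RPKM in all 18 libraries. It differed at oxLDL 60 by -0.04 (SE 0.07, limma adjusted p = 0.718) in Apoe-/- and by -0.19 (SE 0.07, limma adjusted p = 0.0383), a fold of 1.14, in DKO.

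Among the BH3-only members, only Bid was called. Bid links death receptors to mitochondria once caspase-8 has cut it. Its level (chr6:120891930-120916853, minus strand, GRCm38) was 20.1, 22.3 and 22.0 RPKM in untreated Apoe-/- cells, 26.6, 25.8 and 26.8 RPKM with oxLDL 10, and 34.1, 33.3 and 34.4 RPKM with oxLDL 60. In DKO it was 21.3, 21.2 and 21.3 RPKM untreated, 24.4, 27.7 and 25.6 RPKM with oxLDL 10, and 29.5, 29.2 and 29.8 RPKM with oxLDL 60. The 3 treatments were separated without overlap in both genotypes, in the order of the amount of oxLDL. At oxLDL 60 Bid rose in Apoe-/- by 0.66 (SE 0.05, limma adjusted p = 6.26e-08), a fold of 1.58. In DKO the difference was 0.47 (SE 0.05, limma adjusted p = 3.58e-06), and its fold of 1.39 missed the limit. At oxLDL 10 the differences were 0.30 (limma adjusted p = 0.00256) and 0.28 (limma adjusted p = 0.00467), both under the fold limit. Exons of Bid overlap those of Bcl2l13 on the other strand, and whether counting used the strand is not given in the sources used here. Bcl2l13 lay between 4.96 and 6.02 RPKM in every library. In the annotation, exons of Bax and Bcl2a1b also overlap those of another gene on the same strand, and exons of Bak1 and Bcl2 those of a gene on the other strand.

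The other BH3-only members were not called in either genotype at either amount of oxLDL. Bcl2l11 (BIM), a target of forkhead factors, had mean levels of 5.16 RPKM untreated and 4.35 RPKM with oxLDL 60 in Apoe-/- and of 5.57 and 4.74 RPKM in DKO, with differences of -0.24 (SE 0.10, limma adjusted p = 0.0736) and -0.23 (SE 0.10, limma adjusted p = 0.0947). Bbc3 (PUMA), a p53 target, was 2.63, 2.91 and 3.88 RPKM in untreated DKO cells and 2.36, 2.27 and 2.19 RPKM with oxLDL 60. The difference of -0.43 (SE 0.15, limma adjusted p = 0.0452) had a fold of 1.35, under the limit, and without DKO untreated replicate 1 it was called at -0.55 (limma adjusted p = 0.0252). In Apoe-/- Bbc3 differed by -0.15 (SE 0.15, limma adjusted p = 0.501). Pmaip1 (NOXA), also a p53 and stress target, ranged from 4.37 to 7.81 RPKM, and its difference at oxLDL 60 was -0.03 in both genotypes (95% interval -0.42 to 0.35).

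By group overlap, 5 members in Apoe-/- and 8 in DKO had oxLDL 60 libraries that did not overlap the untreated ones, against 40.7% and 42.6% of all genes. Between oxLDL 60 and oxLDL 10 no member was called in either genotype, where 2.91% of all genes were called higher and 3.54% lower in Apoe-/- and 1.92% and 3.74% in DKO (limma). In DKO the split of 246 higher and 480 lower genes became 361 and 359 after rescaling by median ratio. At an unadjusted p under 0.05 this step held 5 of 10 members in Apoe-/- and 2 of 10 in DKO, against 25.5% and 28.8% of all genes. The summed level of the anti-apoptotic members was 170 ± 19.0 RPKM (SD, n = 3) untreated and 166 ± 10.5 RPKM with oxLDL 60 in Apoe-/-, and 167 ± 6.74 and 164 ± 1.83 RPKM in DKO, with Mcl1 as the larger part. Bcl2a1b is not a member and is left out of this sum. The sum of Bax and Bak1 was 160 ± 11.6 RPKM and 196 ± 5.94 RPKM in Apoe-/- and 170 ± 0.616 and 175 ± 10.3 RPKM in DKO. That of the BH3-only members was 35.1 ± 3.24 and 46.3 ± 0.532 RPKM in Apoe-/- and 36.2 ± 0.718 and 42.7 ± 1.41 RPKM in DKO, mostly Bid. The BH3-only sums of treated and untreated cells did not overlap, whereas the anti-apoptotic sums did. The sums of Bax and Bak1 at oxLDL 60 and untreated did not overlap in Apoe-/- (190 to 202 against 147 to 169 RPKM) and overlapped in DKO. These sums were not tested.

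To ask whether loss of Treml4 alters the family, DKO and Apoe-/- cells were compared at each treatment. No member was called, where 0.21% of all genes were called untreated (22 higher and 5 lower, or 14 and 9 after rescaling), 0.0857% with oxLDL 10 and 0.125% with oxLDL 60 (limma). At an unadjusted p under 0.05 there were 0 of 10 members untreated, 1 with oxLDL 10 (Bcl2l1) and 2 with oxLDL 60 (Bax and Bid), against 17.3%, 9.75% and 7.88% of all genes. The summed neutrophil markers differed in mean between the genotypes (37.9 ± 8.12 RPKM in untreated Apoe-/- and 60.7 ± 23.0 RPKM in untreated DKO, SD, n = 3, overlapping groups). The summed markers of fibroblasts and stroma differed in the other direction (7.34 ± 6.01 RPKM in untreated Apoe-/- and 3.22 ± 1.94 RPKM in untreated DKO, SD, n = 3, overlapping groups). The part of either sum in these values was not tested. Bid at oxLDL 60 was 29.2 to 29.8 RPKM in DKO and 33.3 to 34.4 RPKM in Apoe-/-, a difference of -0.20 (SE 0.05, limma adjusted p = 0.266). Bax was 127 to 141 RPKM in DKO and 145 to 158 RPKM in Apoe-/-, a difference of -0.18 (SE 0.08, limma adjusted p = 0.586). With Bbc3 (-0.21, limma adjusted p = 0.753), these were the 3 members whose genotype groups did not overlap at oxLDL 60, against 16.5% of all genes. Bcl2l1 with oxLDL 10 had means of 37.1 RPKM in DKO and 28.8 RPKM in Apoe-/-, a difference of 0.38 (SE 0.15, limma adjusted p = 0.484), and the groups overlapped.

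The 95% intervals, 1 for each member and not adjusted for their number, show how far single members may differ between the genotypes. They come from a fit that treats all 18 libraries as independent, although libraries of 1 replicate number deviated together within a genotype. The farthest 95% bound of any member was a fold of 1.52 untreated (Bcl2l1), 1.64 with oxLDL 10 (Bcl2a1d) and 1.49 with oxLDL 60 (Pmaip1). For the copy Bcl2a1b, which is not among the members, the interval with oxLDL 60 was wider, from -0.93 to 0.13 on the log2 scale. The interaction of genotype and oxLDL, which tests whether the response itself differed, called no member at oxLDL 10, where 0% of all genes were called, or at oxLDL 60, where 0.0156% were. At an unadjusted p under 0.05 the interaction at oxLDL 60 held Bax (-0.28, SE 0.11, limma adjusted p = 0.507) and Bid (-0.19, SE 0.08, limma adjusted p = 0.507), beside 9.78% of all genes at that limit and a median of -0.11 over all genes. That Bid was called in Apoe-/- and not in DKO is thus not shown to be a difference between the genotypes.

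**Figure D4:**
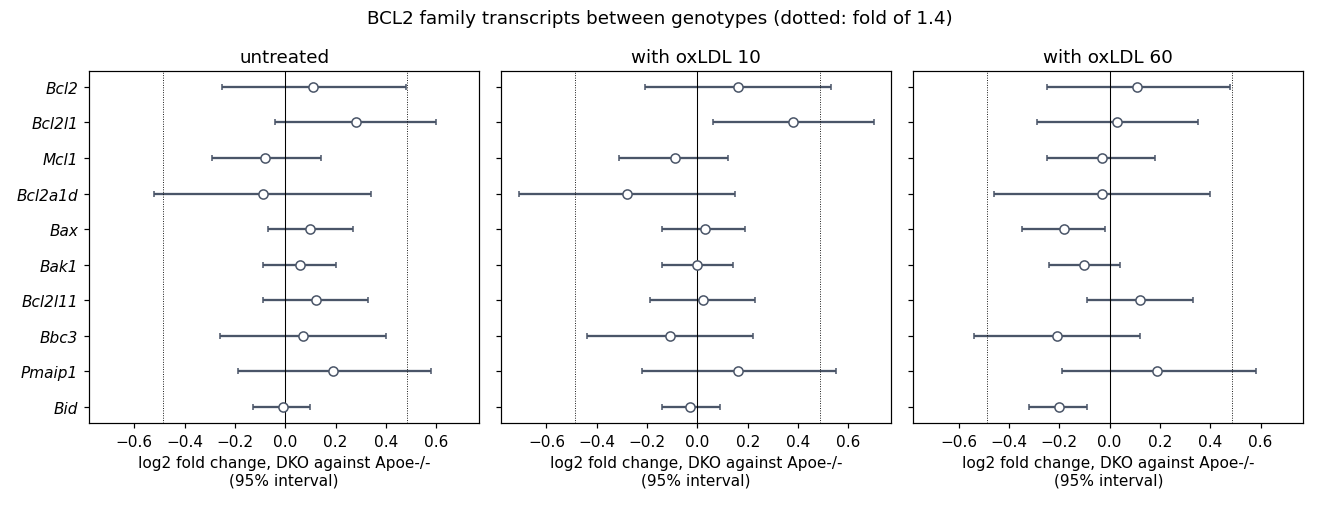
Difference of DKO from Apoe-/- for each member on the log2 scale (horizontal axes, bars: 95% interval), untreated, with oxLDL 10 and with oxLDL 60. Dotted lines mark a fold of 1.4 and no member was called. The intervals of Bid and Bax at oxLDL 60 lie below 0, at -0.32 to -0.09 and -0.35 to -0.02, and that of Bcl2l1 with oxLDL 10 lies above 0, at 0.06 to 0.70.

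Genes around the family were taken from lists of related function. As background for each list at oxLDL 60, 7.13% of all genes were called higher and 6.78% lower in Apoe-/-. In DKO these shares were 4.87% and 7.31%. Of 16 other BCL2 relatives 11 were tested, since Bcl2l10, Bcl2a1c, Hrk, Bcl2l14 and Bcl2l15 were too low. At oxLDL 60 none was called higher, and 2 were called lower in each genotype (limma). Beside Bcl2a1a these were Bmf, a BH3-only gene, in Apoe-/- (3.02 to 1.64 RPKM, -0.86, SE 0.31, limma adjusted p = 0.0471), and Bik, also BH3-only, in DKO (1.69 to 1.01 RPKM, -0.67, SE 0.22, limma adjusted p = 0.0292). Their means were also lower in the other genotype, without a call. Bmf went from 2.67 to 1.52 RPKM in DKO and Bik from 0.831 to 0.676 RPKM in Apoe-/-. Of 22 genes of the apoptosome, the caspases and their inhibitors, none was called higher, and 1 was called lower in Apoe-/- and 2 in DKO. Smaller changes went both ways, with 13 of the 22 above 0 in Apoe-/- and 6 in DKO. Whatever the fold, 9 in Apoe-/- and 5 in DKO had a limma adjusted p under 0.05. The groups of 12 and 9 genes did not overlap, against 40.7% and 42.6% of all genes. Birc3, an inhibitor of apoptosis and NF-kB target, fell from 33.2 to 14.9 RPKM in Apoe-/- (-1.14, SE 0.16, limma adjusted p = 4.6e-05), and in DKO it fell from 29.2 to 13.7 RPKM (-1.07, SE 0.16, limma adjusted p = 9.99e-05). Endog, a mitochondrial nuclease, was called lower in DKO (-0.52, limma adjusted p = 0.0318). In Apoe-/- its mean went from 2.04 to 1.85 RPKM, without a call.

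Genes described upstream of the BH3-only members were taken next. Of 10 stress response and forkhead genes 7 rose at oxLDL 60 in each genotype and none at oxLDL 10, with a median change of 0.96 in Apoe-/- and 0.92 in DKO. Ddit3 (CHOP), a stress factor described as an inducer of Bcl2l11 and Bbc3, rose from 12.3 to 28.4 RPKM in Apoe-/- (1.20, SE 0.23, limma adjusted p = 0.000626), and in DKO it rose from 19.0 to 37.5 RPKM (0.98, SE 0.23, limma adjusted p = 0.00355). Trib3 rose by 2.18 and 1.90 and Chac1 by 1.93 in each genotype. In the same libraries Bcl2l11, Bbc3 and Pmaip1 were not called higher. Of 13 tested genes of the p53 list 2 rose and 2 fell in each genotype. Gdf15, a secreted stress cytokine, rose by 3.78 and 3.67 and Sesn2 by 0.81 and 0.50, while the death receptor Fas fell by 1.52 and 1.43 and Sesn1 by 1.16 and 0.98. Mdm2, a classical p53 target, differed by 0.10 (limma adjusted p = 0.641) and -0.06 (limma adjusted p = 0.807). Of 9 genes for turnover of the proteins, Huwe1, an Mcl1 ubiquitin ligase, was called lower in Apoe-/- (-0.51, limma adjusted p = 0.00216). Dynll1, which tethers Bcl2l11 and Bmf, was called lower in DKO (-0.50, limma adjusted p = 2.49e-06). Their means were lower in the other genotype too, without a call. Huwe1 went from 11.5 to 9.33 RPKM in DKO and Dynll1 from 47.3 to 36.9 RPKM in Apoe-/-. No gene of these lists was called between genotypes or in the interaction.

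**Figure D5:**
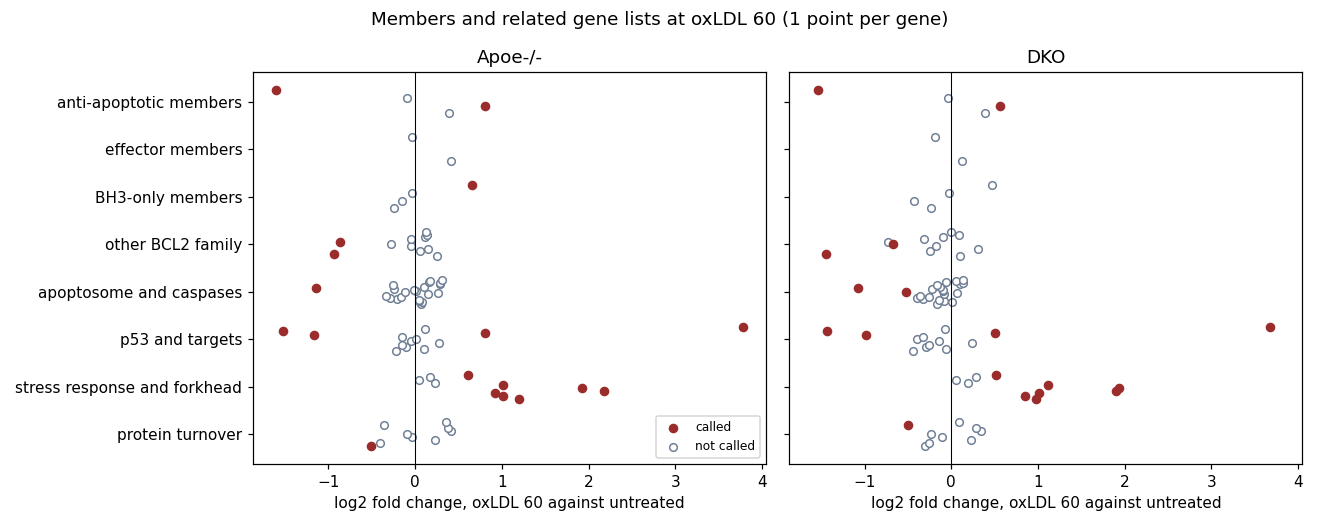
Change at oxLDL 60 against untreated cells on the log2 scale (horizontal axes) for each gene tested of the members by role and of 5 related lists, 1 point a gene, in Apoe-/- (left) and DKO (right), filled where called. The stress and forkhead list has 7 filled points to the right in both panels, the farthest point is Gdf15 at 3.78 and 3.67, and the lowest member is Bcl2a1d at -1.60 and -1.54.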

How the data were processed

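Total RNA of 18 BMDM libraries was sequenced by the authors. The labels name runs of different read lengths and instruments and do not assign the libraries to them. Per the labels, reads were aligned with STAR to mm10, which is the GRCm38 build; the annotation and the counting of shared reads are not given in the sources used here. The deposited values are RPKM, computed by the authors and used as deposited. The authors' own calls came from DESeq2, which needs counts, so limma 3.58.1 in R 4.3.3 was used, with the study's limits of 0.05 on the adjusted p and 1.4 on the fold. Testing was limited to genes reaching 0.1 RPKM in 3 or more libraries, on log2(RPKM + 0.1), which understates fold changes of low genes. The model held 6 group means over the 18 libraries (12 residual degrees of freedom, eBayes with trend), with Benjamini-Hochberg adjustment within each of 11 comparisons. The 95% intervals use a t quantile with 12 degrees of freedom. The fit was tested on simulated data with independent noise in each library. That test cannot speak to deviations that libraries of 1 replicate number share. No test of 3 libraries against 3 alone can go below p = 0.10 by permutation.

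The label gives biological replicates. In each genotype, libraries that carry 1 replicate number (18 pairs in all) deviated together from their group means (correlation 0.18 to 0.69). The numbers thus pair libraries within a genotype, while between genotypes the median was -0.17. The main model held no term for the replicate number, so its SE, p-values and intervals treat the libraries as independent. The replicate block was fitted only as an alternative. Groups and numbers came from the labels. Depth was estimated from steps of 1 read in low RPKM values, of which 84.5% of 46609 lay within 0.05 of a whole number, with GENCODE M21 exon lengths (97.3% of symbols matched). Genes named are the 10 members, related lists and, in each list, up to 3 called genes per direction with the largest fold at oxLDL 60; the 5 genes most like Bcl2l1 and Bcl2a1d in pattern are given at the end, except that some results of this rule are not reported here. Bcl2l13, Mdm2, Bik, Endog, Dynll1, Cd14, Mertk and the genes too low to test were named for context after their values were seen. The members and lists were chosen with earlier results of these data known. Alternatives to the pseudocount, filter, scaling, samples and limits were run.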

Additional observations from a re-analysis of the deposited data

How the results depend on the processing

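Changes of the called members kept their sign under all 16 alternatives run for each. Bcl2a1d was called against untreated cells at both amounts of oxLDL in both genotypes, and Bcl2l1 and Bid at oxLDL 60 in Apoe-/-, under every alternative. In Apoe-/- at oxLDL 10 the number of members called went from 1 to 2 without the libraries with Xist transcripts and to 2 with no limit on the fold change, and ran from 1 to 2 (without oxLDL 10 replicate 2) when single replicates were left out. In DKO at oxLDL 10 it went from 1 to 2 with the replicate block, with a term for Xist and with no fold limit, and ran from 1 to 2 without single replicates. Between oxLDL 60 and oxLDL 10 in Apoe-/- it went from 0 to 1 with a filter at 1 RPKM, after rescaling by median ratio, with the replicate block, with a term for Xist, without the libraries with Xist transcripts and with no fold limit, and ran from 0 to 1 without single replicates (Bcl2a1d without oxLDL 60 replicate 2, limma adjusted p = 0.00821, and Bcl2l1 without oxLDL 10 replicate 1, limma adjusted p = 0.0261). In DKO the same step went from 0 to 1 with no fold limit. In DKO at oxLDL 60 the number went from 2 to 1 without the libraries with Xist transcripts, where Bcl2l1 differed by 0.43 (limma adjusted p = 0.00295) with a fold under the limit, to 5 with no fold limit, and from 1 (without untreated replicate 3) to 3 (without untreated replicate 1) when single replicates were left out. Without oxLDL 10 replicate 3, Bcl2l1 was called in DKO at oxLDL 10 (0.62, limma adjusted p = 0.028). Bid in DKO at oxLDL 60 was called after rescaling (0.54). The cause was not tested in these cases, other than that a fold limit removes small changes. Shares of all genes called under these alternatives are not given here, so the changed counts cannot be set against all genes. The replicate block changed no other call, and, being set within a genotype, it could not be fitted between genotypes. Rescaling moved the median of the interaction at oxLDL 60 from -0.11 to 0.007. No alternative called a member between genotypes or in the interaction. Depth limits Bcl2a1a, with 26 reads in its lowest library, more than any member.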

Other observations

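Over the 18 libraries, the 5 genes most like Bcl2l1 in pattern among 10102 genes with a mean of at least 1 RPKM included Lasp1 (Pearson r = 0.968 on the log2 scale), Mtrr (0.963), Pacc1 (0.961) and Gramd1b (0.961). Lasp1, an actin-binding protein, averaged 83.7, 101 and 116 RPKM untreated, with oxLDL 10 and with oxLDL 60 in Apoe-/- and 95.4, 116 and 120 RPKM in DKO. The genes most like Bcl2a1d were Trps1 (0.954), Ralgds (0.949), Slc31a2 (0.945), Icam1 (0.935) and Pde4b (0.935). Icam1, an adhesion molecule, averaged 93.7, 59.1 and 44.1 RPKM in Apoe-/- and 91.2, 59.4 and 46.6 RPKM in DKO. The libraries share treatments and replicate numbers, so these correlations describe shared levels only.

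Cd14, a co-receptor for LPS on macrophages, fell with oxLDL 60 from 359 to 117 RPKM in Apoe-/- (limma adjusted p = 3.56e-07), and in DKO it fell from 358 to 101 RPKM (limma adjusted p = 9.98e-08). Mertk, a receptor for dying cells, rose from 3.32 to 5.35 RPKM in Apoe-/- (limma adjusted p = 0.0147), and in DKO it rose from 2.48 to 4.07 RPKM (limma adjusted p = 0.0143). The sum of 5 proliferation markers lay between 235 and 334 RPKM in all libraries.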
